A study of Mus musculus with 38 samples.

Results

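The step from 1 to 3 h of tumour necrosis factor (TNF) treatment was examined in primary mouse embryonic fibroblasts that carry the knock-in allele RelA-TA-KI on both copies of Rela. It rests on 4 of the 38 libraries of the series: replicates 1 and 2 at 3 h and replicates 1 and 2 at 1 h, taken by their column names in the TNF count table. The corresponding 4 wild-type (WT) libraries, 2 at 3 h and 2 at 1 h, gave the same step in WT cells, the test of the difference and, with other WT libraries, the genes that TNF induced there. All 20 TNF libraries entered 1 fit. All cells were C57BL/6 fibroblasts from embryos, kept overnight in medium with 0.5% bovine calf serum before TNF was added at 10 ng/ml. Poly(A)-selected RNA was sequenced from bulk cultures with a stranded kit. Going by the series title, TA stands for transactivation, and which residues the allele alters is not given in the sources used here. The labels do not say whether replicate numbers stand for embryos, cultures or days, so p-values measure the spread between these samples, which may be technical.

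RelA is the subunit of the NF-kB family that carries a strong transactivation domain and acts mostly as a dimer with p50. TNF releases such dimers from their IkB inhibitors within minutes, and in wild-type fibroblasts this brings a first wave of immediate early and feedback genes, followed by chemokines, adhesion molecules and genes that other newly made factors control. Many inhibitors of the pathway, among them IkB alpha (Nfkbia) and A20 (Tnfaip3), are themselves NF-kB target genes, so that their transcripts usually peak early and fall again.

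The 4 libraries held 8124572 to 9107300 counts, and all 20 TNF libraries 6715022 to 9590932. Replicates correlated across genes with r of 0.9923 at 3 h and 0.9918 at 1 h (log2 scale). The 15 fibroblast markers, such as the collagen gene Col1a1, were detected in every library and summed to 43160 and 49370 CPM (counts scaled to effective library size) at 3 h, against 50580 and 46940 CPM at 1 h. None of them was called (0 at an unadjusted p under 0.05 in edgeR, 0 in DESeq2, and 3 lower with the replicate block described below). Values of 2 libraries are given in the order replicate 1, replicate 2 throughout. Bulk RNA does not separate fewer cells of a type from less RNA per cell.

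Between 3 and 1 h, 1042 of 13843 genes tested were called, which here means an adjusted p below 0.05 in the edgeR quasi-likelihood test with Benjamini-Hochberg adjustment over all genes. Of these, 654 were higher at 3 h (4.72% of genes tested) and 388 were lower (2.8%). A change of at least 2-fold was reached by 63 of the higher genes (0.455%) and 77 of the lower genes (0.556%). The median log2 fold change over all genes was -0.00174. A fit with a term for the replicate number within each genotype (the replicate block) called 2620 genes, 1476 higher and 1144 lower. With 1 library left out, the count was 287 without replicate 1 at 1 h, 459 without replicate 2 at 1 h, 348 without replicate 1 at 3 h and 292 without replicate 2 at 3 h.

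The same step in WT cells gave 1762 calls, 1080 higher (7.8%) and 682 lower (4.93%), and shared no library with the RelA-TA-KI step. Without WT replicate 1 at 1 h the count was 1092, without WT replicate 2 at 1 h 896 and without WT replicate 2 at 3 h 937; with the replicate block it was 3168. At least 2-fold changes were 225 higher (1.63%) and 121 lower (0.874%) in WT. Both steps called 454 genes higher, which is 69.4% of the higher calls in RelA-TA-KI and 42% of those in WT. Both called 225 genes lower, 58% of the lower calls in RelA-TA-KI and 33% of those in WT. The difference of the steps, RelA-TA-KI minus WT, was tested by itself in the same model and called 70 genes, 39 positive (0.282%) and 31 negative (0.224%), or 173 and 191 with the replicate block. Of these, 29 positive (0.209%) and 18 negative (0.13%) differences were at least 2-fold. Of the 39 genes with a positive difference, 35 were called lower in the WT step and 16 were called higher in the RelA-TA-KI step. Of the 31 with a negative difference, 29 were called higher in the WT step, and 23 were not called in the RelA-TA-KI step. Leaving out 1 RelA-TA-KI library gave 39 to 43 calls of the difference, and leaving out WT replicate 2 gave 45 at 1 h and 44 at 3 h.

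**Figure D1:**
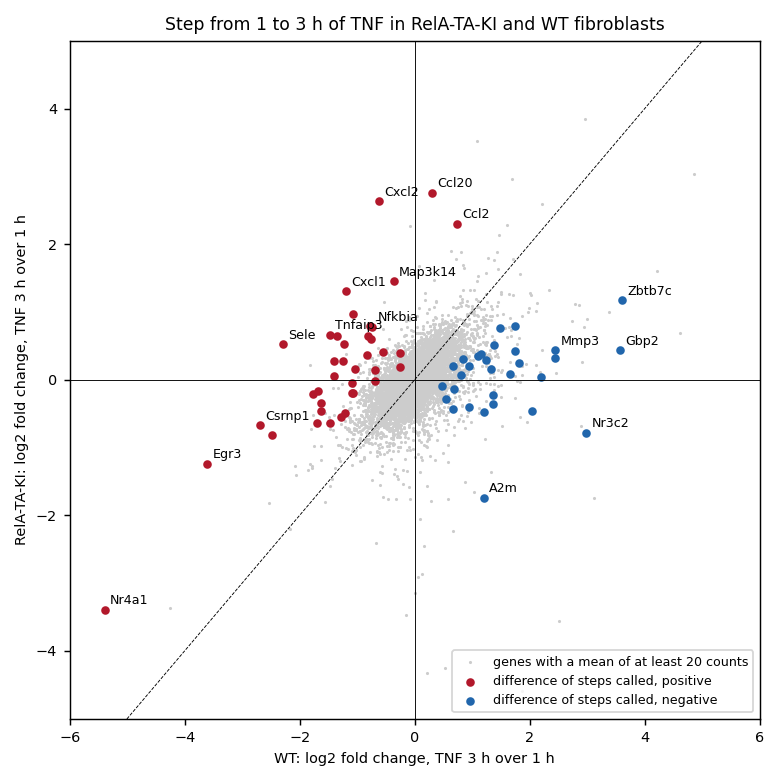
Log2 fold change of 3 h over 1 h of TNF in RelA-TA-KI cells (vertical) against WT cells (horizontal) for genes averaging 20 counts or more; genes beyond the axes are not drawn, and the dashed line marks equal steps. Coloured points are genes whose difference of steps was called: the positive ones lie left of the dashed line and include Nr4a1, Tnfaip3 and Ccl20, and the negative ones lie right of it and include Gbp2, Nr3c2 and Mmp3.

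A set of 12 genes was called in both genotypes with opposite directions. All 12 were higher at 3 h in RelA-TA-KI cells and lower at 3 h in WT cells, and none went the other way. All 12 were among the called differences of steps, which their choice by opposite calls in the same fit made likely. They are Map3k14, Cxcl1, Lif, Rnd1, Nfkbia, Tnfaip3, Irf1, Ier2, Ier3, Zfp36, Ppp1r18 and Spry4. The replicate block, fitted to the same libraries, called all 12 in both steps with the same signs.

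Promoter sequence is shown for 4 NF-kB targets that rose in the RelA-TA-KI step and for 1 immediate early gene that fell so that the kappaB matches counted below can be seen. Each line gives the 250 bases before the RefSeq start (GRCm38.p6), 5′ to 3′ on the strand of the gene; capitals mark matches to the kappaB consensus on either strand and, in Tnfaip3, also 1 match to the AP-1 motif TGANTCA. These 5 genes were picked after their values were seen.

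Nfkbia: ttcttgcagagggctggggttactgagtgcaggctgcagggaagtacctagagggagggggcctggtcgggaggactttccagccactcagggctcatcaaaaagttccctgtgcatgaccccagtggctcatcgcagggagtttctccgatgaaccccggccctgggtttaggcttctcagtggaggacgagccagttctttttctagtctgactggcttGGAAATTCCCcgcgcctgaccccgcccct
Tnfaip3: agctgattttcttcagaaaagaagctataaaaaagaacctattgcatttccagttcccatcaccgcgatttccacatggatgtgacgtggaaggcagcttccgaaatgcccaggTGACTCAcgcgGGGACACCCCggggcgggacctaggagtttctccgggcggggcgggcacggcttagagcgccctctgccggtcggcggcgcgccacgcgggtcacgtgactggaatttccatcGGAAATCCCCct
Cxcl1: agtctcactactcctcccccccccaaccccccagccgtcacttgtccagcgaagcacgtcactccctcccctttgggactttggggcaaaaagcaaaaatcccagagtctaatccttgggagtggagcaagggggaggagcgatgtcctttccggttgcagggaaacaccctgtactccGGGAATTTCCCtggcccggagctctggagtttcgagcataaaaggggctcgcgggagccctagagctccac
Ccl20: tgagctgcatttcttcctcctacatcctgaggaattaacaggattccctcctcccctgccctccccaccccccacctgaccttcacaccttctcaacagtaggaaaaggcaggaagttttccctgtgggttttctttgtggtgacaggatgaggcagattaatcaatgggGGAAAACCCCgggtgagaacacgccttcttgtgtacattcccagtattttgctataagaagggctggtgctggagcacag
Fosb: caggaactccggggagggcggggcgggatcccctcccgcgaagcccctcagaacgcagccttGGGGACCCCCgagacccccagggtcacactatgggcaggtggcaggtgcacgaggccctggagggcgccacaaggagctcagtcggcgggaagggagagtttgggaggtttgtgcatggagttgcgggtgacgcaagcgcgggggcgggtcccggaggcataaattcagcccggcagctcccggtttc

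Nfkbia lies on the minus strand at chr12:55492648-55492897, with its kappaB match starting 29 bases before the start. Tnfaip3 (minus strand, chr10:19015411-19015660) has kappaB matches 125 and 12 bases and an AP-1 match 136 bases before the start. Cxcl1 (plus strand, chr5:90890995-90891244) has a pair of overlapping matches at 71 and 70 bases, Ccl20 (plus strand, chr1:83116516-83116765) has 1 at 80 bases, and Fosb (minus strand, chr7:19310046-19310295) has 1 at 188 bases. Of the 63 genes that rose at least 2-fold, 50 had an entry in the promoter table, and 14 of these (28%) held a kappaB match, among them Ccl20, Cxcl2, Cxcl10, Nfkbie, Nfkb2 and Csf1. The share was 3.7% (2 of 54) among the genes that fell at least 2-fold and 3.75% over 27025 genes, each by its first start. Those 27025 are all genes with an entry, including genes not tested here, so this base is wider than the genes that could be called. Of the 12 genes that went opposite ways, 9 had an entry and 5 of these held a match: Nfkbia, Tnfaip3, Cxcl1, Irf1 and Ier3. The cyclic AMP response element TGACGTCA was found in 0 of 50 rising and 2 of 54 falling genes (1.62% of all genes), TGANTCA in 3 and 5 (6.87%), the CArG box in 0 and 1 (1.4%), and the interferon-stimulated response element in 1 and 2 (3.04%). Of 6 more promoters, taken by rank among the largest rises and falls with an entry, those of Acod1, Clec4e, Gpr84, Asprv1 and Krt5 held none of these motifs, and that of Dmkn held 1 AP-1 match 89 bases before the start. A match is a run of letters in this window and was not tested for binding.

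Negative regulators of NF-kB were among the 12 genes with opposite directions. Nfkbia, which encodes the inhibitor IkB alpha, had 107 and 113 CPM at 3 h in RelA-TA-KI cells, against 61.5 and 66.5 CPM at 1 h. In WT cells it had 357 and 378 CPM at 3 h, against 599 and 626 CPM at 1 h. The RelA-TA-KI step was 0.78 (log2, SE 0.11, edgeR adjusted p = 0.00089), the WT step -0.74, and their difference 1.52 (SE 0.15, edgeR adjusted p = 0.00015). Tnfaip3, which encodes the ubiquitin-editing enzyme A20, had 42.5 and 43.2 CPM at 3 h in RelA-TA-KI cells, against 27.3 and 26.9 CPM at 1 h. Its WT libraries had 208 and 232 CPM at 3 h, against 626 and 601 CPM at 1 h, and the difference of steps was 2.14 (SE 0.19, edgeR adjusted p = 7.7e-05). No RelA-TA-KI library of either gene at 3 h overlapped those at 1 h, and every RelA-TA-KI library lay below every WT library at these times. Over the whole course in RelA-TA-KI cells, Nfkbia stood at 19.0 and 21.3 CPM before TNF, 28.3 and 33.6 at 0.5 h, 61.5 and 66.5 at 1 h, 107 and 113 at 3 h and 158 and 184 CPM at 8 h, so each later time lay above the one before.

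Map3k14 encodes NIK, the kinase that starts the alternative NF-kB pathway, and it was the member of the group with the largest rise in RelA-TA-KI cells. It had 46.7 and 48.9 CPM at 3 h, against 17.6 and 17.4 CPM at 1 h (step 1.45, SE 0.09, edgeR adjusted p = 5.6e-07). In WT cells it had 19.0 and 19.6 CPM at 3 h, against 24.4 and 25.3 CPM at 1 h (step -0.36), which gives a difference of 1.81 (SE 0.13, edgeR adjusted p = 2.5e-05). Unlike the inhibitors, Map3k14 at 3 h was higher in both RelA-TA-KI libraries than in any of these WT libraries.

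Secreted factors and a transcription factor moved in the same way. Cxcl1, a chemokine that attracts neutrophils, had 19.1 and 22.5 CPM at 3 h in RelA-TA-KI cells, against 7.96 and 8.87 CPM at 1 h, and in WT cells 43.4 and 60.4 CPM at 3 h, against 126 and 113 CPM at 1 h. Lif, an interleukin 6 family cytokine, had 43.8 and 38.3 CPM at 3 h in RelA-TA-KI cells, against 22.4 and 19.5 CPM at 1 h. Irf1, an interferon regulatory factor that NF-kB induces, had 58.4 and 64.5 CPM at 3 h in RelA-TA-KI cells, against 37.4 and 41.3 CPM at 1 h, and in WT cells 174 and 232 CPM at 3 h, against 478 and 565 CPM at 1 h. The differences of steps were 2.50 for Cxcl1, 2.05 for Lif and 2.00 for Irf1. Cxcl1 had an earlier high in both genotypes, with 21.9 and 24.4 CPM at 0.5 h in RelA-TA-KI cells, so its value at 1 h is a dip between 2 higher times.

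The other members were Rnd1 (RelA-TA-KI step 0.79, WT step -0.78), the immediate early genes Ier2 (0.64 and -0.81) and Ier3 (0.59 and -0.77), Zfp36, which encodes the mRNA decay factor tristetraprolin (0.53 and -1.22), Ppp1r18, which encodes a protein phosphatase partner (0.41 and -0.55), and Spry4, a Sprouty feedback inhibitor of receptor tyrosine kinase signalling (0.37 and -0.83). Ier2 in RelA-TA-KI cells had 164 and 145 CPM at 0.5 h, 32.0 and 33.4 at 1 h and 47.5 and 54.4 CPM at 3 h, so the step upwards followed a fall. With single RelA-TA-KI libraries left out, the RelA-TA-KI step itself stayed called in all 4 leave-outs for Map3k14 and Nfkbia. It was lost without any 1 of the 4 libraries for Cxcl1 (log2 steps of 1.18 to 1.41), Tnfaip3 (0.64 to 0.68), Irf1 (0.57 to 0.71) and Spry4 (0.31 to 0.41). It was lost for Ppp1r18 without replicate 2 at 3 h (0.35), for Rnd1 without replicate 2 at 1 h or 3 h (lowest 0.68), and for Lif (lowest 0.86), Ier2 (lowest 0.54), Ier3 (lowest 0.39) and Zfp36 (lowest 0.25) without any of 3 libraries. The difference of steps stayed called in all 8 leave-outs for 10 of the 12 genes, the exceptions being Cxcl1 (lowest 2.28) and Ier3 (lowest 1.08).

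**Figure D2:**
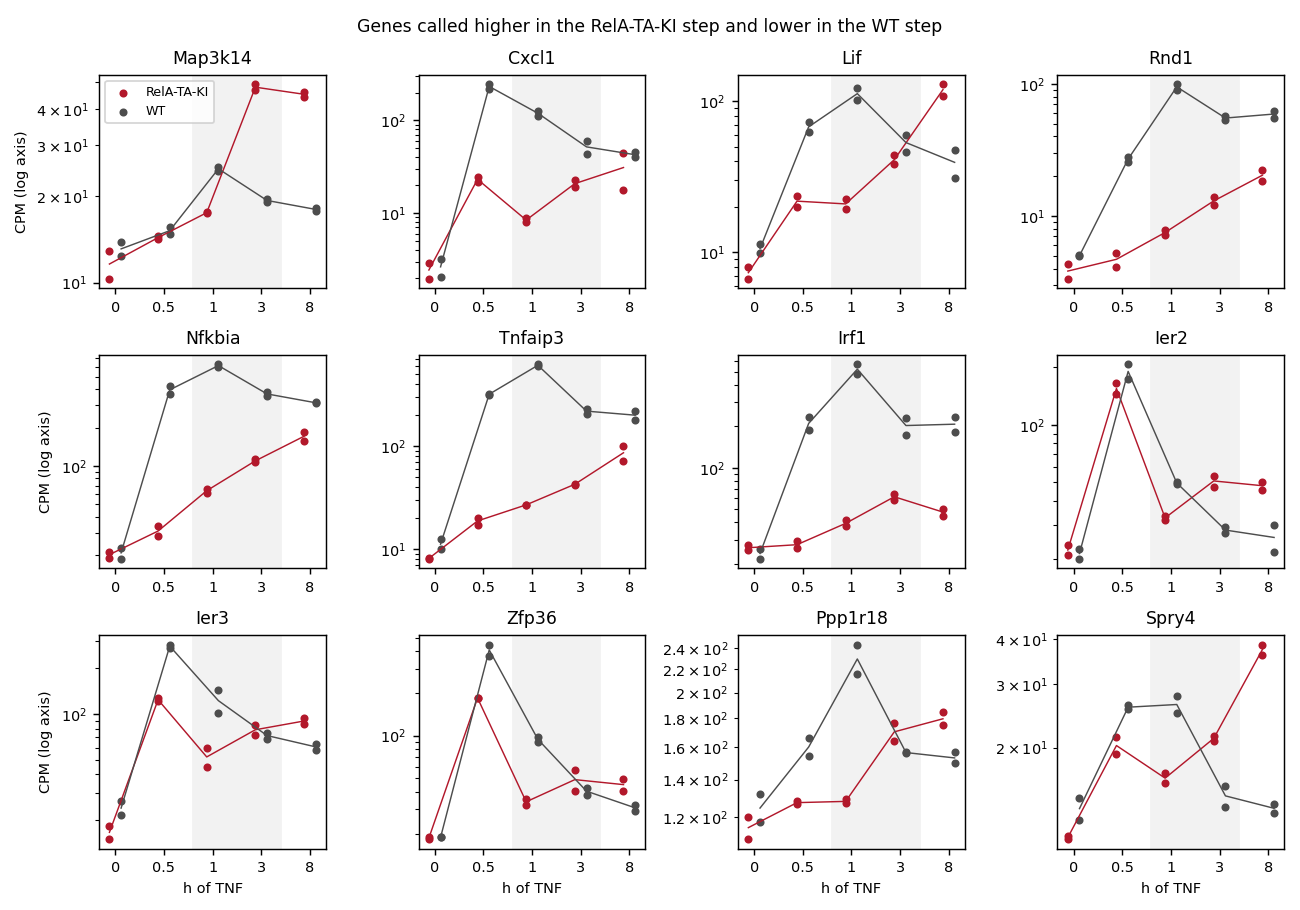
CPM on log axes over the 5 times for the 12 genes called higher in the RelA-TA-KI step and lower in the WT step, with RelA-TA-KI libraries in red, left of the WT libraries in grey; points are single libraries, lines join means, and the grey band marks 1 and 3 h. In the band the red line goes up and the grey line down in every panel, and there the red points of Nfkbia, Tnfaip3 and Rnd1 lie below the grey ones.

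Immediate early genes, which encode transcription factors and regulators switched on without new protein synthesis, were mostly lower at 3 h. Of 37 tested, 17 were called lower and 4 higher in RelA-TA-KI cells with a median log2 step of -0.46; in WT cells 29 were called lower and 0 higher with a median of -0.97. The 4 higher calls were 1, 0, 2 and 0 without RelA-TA-KI replicate 1 at 1 h, replicate 2 at 1 h, replicate 1 at 3 h and replicate 2 at 3 h, an order of libraries that also holds for the leave-out counts of lists below, and the lower calls were 13 to 16. The difference of steps was called for 13 of the 37, all positive (22 with the replicate block and 9 to 12 with 1 library left out, all positive). The replicate block called 22 of the 37 steps lower and 5 higher in RelA-TA-KI cells, and 34 and 1 in WT cells. Over all genes tested, 2.8% were called lower and 4.72% higher in RelA-TA-KI cells, and 4.93% and 7.8% in WT cells. A positive difference was called for 0.282% of all genes. Nr4a1, an orphan nuclear receptor, had 18 and 22.8 CPM at 3 h in RelA-TA-KI cells, against 221 and 209 CPM at 1 h (step -3.39, SE 0.11, edgeR adjusted p = 5.6e-10). In WT cells it had 6.78 and 5.16 CPM at 3 h, against 256 and 238 CPM at 1 h, and the difference of steps was 2.00 (SE 0.18). At 1 h both RelA-TA-KI libraries lay below both WT libraries, and at 3 h both lay above them.

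Among the Egr zinc finger factors, Egr3 fell to 8.10 and 7.91 CPM at 3 h in RelA-TA-KI cells, against 20.6 and 17.3 CPM at 1 h (step -1.24; WT step -3.61; difference 2.37). Egr2 had a step of -0.82, against -2.49 in WT, with a difference of 1.67. Egr1 was not called in RelA-TA-KI cells, with 226 and 256 CPM at 3 h and 219 and 178 CPM at 1 h, whereas in WT cells it had 107 and 89.4 CPM at 3 h, against 296 and 225 CPM at 1 h (difference 1.69, edgeR adjusted p = 0.00054). Csrnp1, a nuclear factor, had a step of -0.68, against -2.69 in WT (difference 2.02); without replicate 1 at 1 h or 3 h the step was -0.53 or -0.57 and not called. The AP-1 gene Fosb fell by 3.36 and the stress factor gene Atf3 by 1.82 on the log2 scale. The nuclear receptor genes Nr4a3 and Nr4a2 fell by 2.21 and 1.18. For these 4 genes the difference from WT was not called, except for Atf3 with the replicate block (0.71, edgeR adjusted p = 0.0055) and without the filter on low counts (edgeR adjusted p = 0.00074).

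Fos moved the other way within the list: it had 25.1 and 37.9 CPM at 3 h in RelA-TA-KI cells, against 15.7 and 13.0 CPM at 1 h (step 1.14, SE 0.29, edgeR adjusted p = 0.029). The WT step of Fos was -0.54 and not called, and the difference, 1.68, was not called. It was called with the replicate block (edgeR adjusted p = 0.017), without the filter on low counts (edgeR adjusted p = 2.1e-14) and in DESeq2 (adjusted p = 0.016). Its size was 1.68 with and without the filter, so only the p-value moved. The Fos step was not called without replicate 1 at 1 h (1.28), replicate 2 at 1 h (1.00) or replicate 2 at 3 h (0.81). Feedback inhibitors of growth factor signalling (MAP kinase phosphatases and Sprouty genes, 17 tested) had 2 members higher and 0 lower in RelA-TA-KI cells, Spry4 and the phosphatase gene Dusp7 (0.30), against 1 higher and 7 lower in WT. With the replicate block these were 4 and 5 in RelA-TA-KI cells. All genes tested had 4.72% higher and 2.8% lower in RelA-TA-KI cells, and 7.8% and 4.93% in WT cells. Without any 1 of the 4 RelA-TA-KI libraries neither Spry4 (0.31 to 0.41) nor Dusp7 (0.24 to 0.35) was called.

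**Figure D3:**
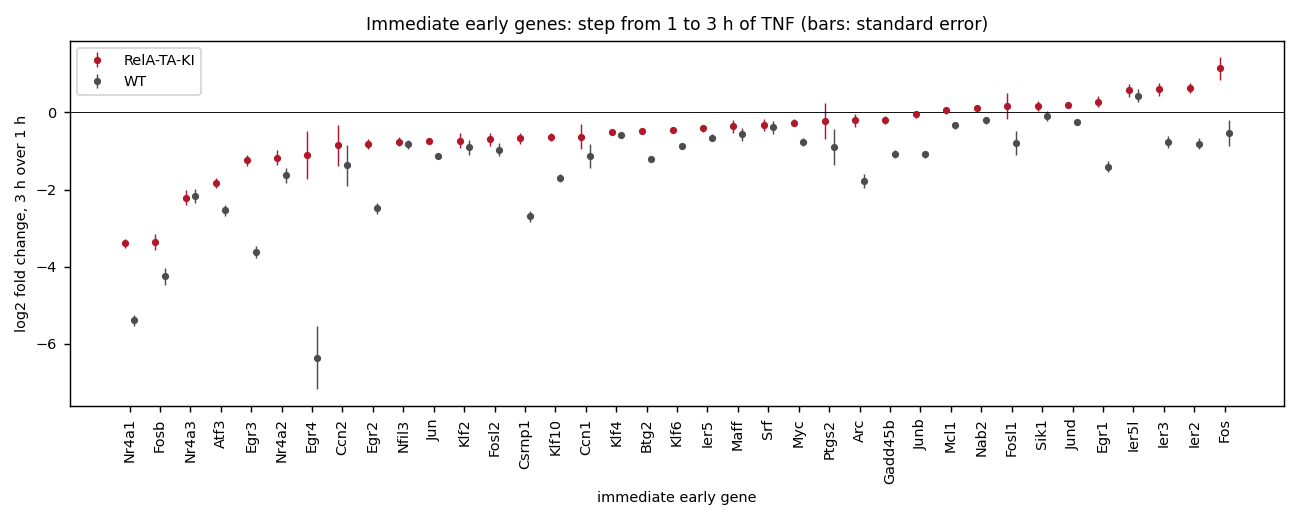
Log2 fold change of 3 h over 1 h with its standard error for the 37 immediate early genes tested, ordered by the RelA-TA-KI step, with RelA-TA-KI (red) left of WT (grey) for each gene. From Egr3 to Egr1 and Ier2 many red points lie above the grey ones, while Nr4a3, Nfil3 and Klf4 have nearly equal steps.

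The genes of the NF-kB subunits themselves moved between 1 and 3 h. Rela had 122 and 122 CPM at 3 h in RelA-TA-KI cells, against 80.8 and 81.4 CPM at 1 h (step 0.59, SE 0.06, edgeR adjusted p = 0.00013); in WT cells the step was 0.29 and the difference, 0.30, was not called. Relb, the partner of p52 in the alternative pathway, rose by 1.46, to 49.1 and 48.5 CPM at 3 h against 17.8 and 17.6 CPM at 1 h. Nfkb2, the precursor of p52, rose by 1.08, and Nfkb1, the precursor of p50, rose by 0.76 against 1.48 in WT (difference -0.73, edgeR adjusted p = 0.0014). Rel, which encodes c-Rel, fell by 0.63 in RelA-TA-KI cells and by 1.48 in WT cells (difference 0.85, edgeR adjusted p = 0.0030). All 5 calls in RelA-TA-KI cells were kept without any 1 library.

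Of 15 inhibitors and feedback genes, 7 were called higher and 0 lower in RelA-TA-KI cells, against 6 higher and 4 lower in WT. The 7 were 4, 6, 6 and 4 with each RelA-TA-KI library left out, and the 6 were 3 to 5 with each WT library left out. Nfkbie, which encodes IkB epsilon, had 16.7 and 21.0 CPM at 3 h, against 3.98 and 4.62 CPM at 1 h in RelA-TA-KI cells (step 2.13, SE 0.22, edgeR adjusted p = 7e-05; WT step 1.46, difference not called). Tnfaip2, a TNF-induced gene, rose by 1.53 and Bcl3, an atypical IkB protein, by 1.27; Bcl3 was not called without replicate 1 at 1 h (1.25) or replicate 2 at 3 h (1.06). The ABIN family gene Tnip3 rose by 1.32, with the same exceptions (1.09 and 0.92). Of 26 genes for the TNF receptor complex and NF-kB kinases, 10 rose and 0 fell, with a median step of 0.18; with each RelA-TA-KI library left out 4, 6, 7 and 3 rose. In WT cells 9 of the 26 rose and 2 fell, with a median step of 0.227. The replicate block called 11 higher and 1 lower in RelA-TA-KI cells. Shares over all genes tested were 4.72% higher and 2.8% lower in RelA-TA-KI cells, and 7.8% and 4.93% in WT cells. Traf1, an adaptor of TNF receptors, rose by 2.28 in RelA-TA-KI cells with 2.90 and 4.23 CPM at 3 h, against 0.723 and 0.729 CPM at 1 h. Birc3, which encodes the ubiquitin ligase cIAP2, rose by 1.16, and the adaptor kinase gene Ripk2 by 0.90. Ripk2 was not called without replicate 2 at 1 h (0.66) or at 3 h (0.78).

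Of 24 chemokine genes tested, 7 rose, 0 fell and 17 were not called in RelA-TA-KI cells, with a median step of 0.99; in WT cells 9 rose and 1 fell with a median of 0.73. The 7 were 12, with 2 lower, with the replicate block, and 4, 5, 6 and 4 with each RelA-TA-KI library left out. The WT rises were 4 to 8 with each WT library left out. The median difference of steps over the 24 was -0.147, with 4 called positive and 0 negative, or 5 and 4 with the replicate block. Of all genes tested, 4.72% rose and 2.8% fell in RelA-TA-KI cells, against 7.8% and 4.93% in WT cells. Ccl2, which attracts monocytes, had 476 and 585 CPM at 3 h in RelA-TA-KI cells, against 98.4 and 117 CPM at 1 h (step 2.30, SE 0.14, edgeR adjusted p = 5.4e-07). In WT cells it had 1087 and 1251 CPM at 3 h, against 676 and 724 CPM at 1 h, and the difference of steps was 1.56 (SE 0.20, edgeR adjusted p = 0.00089). Ccl20, the ligand of CCR6, had 17.9 and 19.1 CPM at 3 h in RelA-TA-KI cells, against 2.77 and 2.67 CPM at 1 h, and in WT cells 150.4 and 127 CPM at 3 h, against 114 and 112 CPM at 1 h. Its step was 2.76 and its difference 2.46. Both genes therefore gained more between 1 and 3 h in RelA-TA-KI cells on the log2 scale while every RelA-TA-KI value remained below every WT value at these times.

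Cxcl2, a neutrophil chemokine close to Cxcl1, had 6.16 and 11.9 CPM at 3 h, against 1.08 and 1.82 CPM at 1 h in RelA-TA-KI cells (step 2.63), and a WT step of -0.62 that was not called (difference 3.26, edgeR adjusted p = 0.010). The Cxcl2 step was not called without replicate 1 at 1 h (2.31) or replicate 2 at 3 h (2.07), and its difference not without those or replicate 2 at 1 h (lowest 2.68). Ccl7, a neighbour of Ccl2 that attracts monocytes, rose by 1.78, against 0.72 in WT; the difference, 1.06, was not called, but was with the replicate block (edgeR adjusted p = 6.6e-06), without the filter on low counts (edgeR adjusted p = 8.9e-13) and in DESeq2 (adjusted p = 0.019). Cxcl10, a ligand of CXCR3, rose by 1.79 and was not called without replicate 1 or 2 at 1 h or replicate 2 at 3 h (lowest 1.45). Cx3cl1, a membrane-bound chemokine, rose by 1.14. Ccl5, which depends on interferon regulatory factors as well as NF-kB, had 0.846 and 1.11 CPM at 3 h, against 0.603 and 0.608 CPM at 1 h in RelA-TA-KI cells (not called), and 55.0 and 77.1 CPM at 3 h, against 3.18 and 2.23 CPM at 1 h in WT cells; the difference of -3.92 was not called, but was with the replicate block (edgeR adjusted p = 0.0051), without the filter on low counts (edgeR adjusted p = 9.3e-06), in DESeq2 (adjusted p = 1.1e-05) and without WT replicate 1 at 3 h (edgeR adjusted p = 0.024).

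Cytokine and growth factor genes (36 tested) had 5 members higher and 1 lower (12 and 6 with the replicate block; 3, 3, 4 and 5 higher with each RelA-TA-KI library left out). Csf1, the macrophage growth factor, had 527 and 433 CPM at 3 h, against 247 and 204 CPM at 1 h (step 1.09), Pdgfb rose by 1.29, Il34 by 1.33, and Kitl, the ligand of Kit, fell by 0.56. Il34 was not called without any 1 of the 4 libraries (1.24 to 1.41), and Kitl not without replicate 1 at 3 h (-0.40) or replicate 2 at 1 h (-0.48). Among 33 adhesion, acute phase and matrix genes, 3 rose and 2 fell in RelA-TA-KI cells (9 and 4 with the replicate block; 2 or 3 and 2 with 1 library left out), against 13 and 6 in WT (5 to 12 and 4 or 5). Over all genes tested, 4.72% rose and 2.8% fell in RelA-TA-KI cells, against 7.8% and 4.93% in WT cells. The share of cytokine genes that fell was close to that of all genes. The leukocyte adhesion genes Icam1 and Vcam1 rose by 1.26 and 0.86 in RelA-TA-KI cells with WT steps of 1.51 and 1.04. Vcam1 was not called without replicate 1 at 1 h (0.78) or replicate 2 at 3 h (0.74). The aggrecanase genes Adamts1 and Adamts5 fell by 1.01 and 0.62. Sele, which encodes E-selectin, was not called in RelA-TA-KI cells, with 2.66 and 5.13 CPM at 3 h and 2.77 and 2.67 CPM at 1 h, while in WT cells it fell by 2.29, to 14.4 and 23 CPM at 3 h against 81.2 and 105 CPM at 1 h. Its difference of 2.82 (edgeR adjusted p = 0.0084) was not called without replicate 1 or 2 at 1 h or replicate 2 at 3 h of RelA-TA-KI (lowest 2.25).

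Genes of the interferon response were called higher at 3 h mainly in WT cells. The shares called higher over all genes tested were 4.72% in RelA-TA-KI cells and 7.8% in WT cells. Of 55 interferon-stimulated genes, 1 (Irf1) was called higher in RelA-TA-KI cells (7 with the replicate block, 0 with any 1 library left out), with a median step of 0.04, against 24 higher and 1 lower in WT with a median of 0.93 (13 to 31 higher with 1 library left out). The difference of steps was called negative for 3 of them, for 2 to 4 with 1 library left out and for 24 with the replicate block. Gbp2, a guanylate-binding GTPase, had 17.5 and 24.6 CPM at 3 h in RelA-TA-KI cells, against 17.0 and 14.3 CPM at 1 h (not called). In WT cells it had 219 and 368 CPM at 3 h, against 23.5 and 26.1 CPM at 1 h, and the difference was -3.13 (SE 0.47, edgeR adjusted p = 0.0039). The antibody receptor and ubiquitin ligase gene Trim21 (difference -2.11) and the ubiquitin ligase gene Dtx3l (difference -2.15) had RelA-TA-KI steps of 0.33 and 0.04 that were not called. The Dtx3l difference was lost in 5 of 8 leave-outs (RelA-TA-KI replicate 1 or 2 at 1 h, RelA-TA-KI replicate 1 at 3 h, WT replicate 1 at 1 h and WT replicate 2 at 3 h; highest -1.89). Of 20 genes of MHC class I antigen presentation, 0 were called in RelA-TA-KI cells (0 at an unadjusted p under 0.05 in edgeR, 0 in DESeq2, 3 higher with the replicate block), against 12 higher and 0 lower in WT (7 to 12 higher with 1 library left out). The immunoproteasome subunit gene Psmb10 had 15.8 and 18.1 CPM at 3 h, against 12.8 and 15.8 CPM at 1 h in RelA-TA-KI cells, and a difference of -1.57. It was the 1 member with a called difference, which became 0 to 4 with 1 library left out and 10 with the replicate block.

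Other genes with a large negative difference have roles outside immunity or in cell death. Nr3c2, the mineralocorticoid receptor, had 1.69 and 1.34 CPM at 3 h and 2.41 and 2.80 CPM at 1 h in RelA-TA-KI cells, against 19.2 and 31.2 CPM at 3 h and 2.67 and 3.72 CPM at 1 h in WT cells (difference -3.76, edgeR adjusted p = 0.0016). Mmp3, the stromelysin that cleaves matrix proteins, had 6.65 and 7.24 CPM at 3 h and 5.30 and 4.98 CPM at 1 h in RelA-TA-KI cells, against 50.1 and 56.5 CPM at 3 h and 11.5 and 8.18 CPM at 1 h in WT cells (difference -2.01). Zbtb7c, a zinc finger factor, rose in both genotypes, by 1.17 in RelA-TA-KI cells and 3.60 in WT cells (difference -2.43); its RelA-TA-KI step was not called without replicate 2 at 1 h (0.98) or at 3 h (0.99). Kcnn3, a potassium channel gene, had a difference of -2.50 that was not called without RelA-TA-KI replicate 1 at 1 h (-2.08). The death receptor gene Fas rose by 0.80 against 1.74 in WT (difference -0.95, lost in 6 of 8 leave-outs, highest -0.80).

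Genes that TNF had induced in WT cells were followed into the RelA-TA-KI step; their choice used WT libraries only. Of the 150 genes called at least 2-fold higher in WT at 1 h than before TNF, 42 (28%) rose and 22 (14.7%) fell between 1 and 3 h in RelA-TA-KI cells, with a median log2 step of 0.23. The 23 of them in the immediate early list had 2 higher and 12 lower (median -0.49), and the other 127 had 40 higher and 10 lower (median 0.39). Over all genes tested, 4.72% rose and 2.8% fell in the RelA-TA-KI step. Of the 244 genes induced in WT at 3 h and not at 1 h, 54 (22.1%) rose and 2 (0.8%) fell. Their median was 0.46, and with the replicate block 100 rose and 3 fell. The first of these counts, 64 calls in both directions, was 42 without replicate 1 at 1 h and 39 without replicate 2 at 3 h. The second, 56 calls, was 26 and 32 without replicate 1 or 2 at 1 h and 37 and 23 without replicate 1 or 2 at 3 h.

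**Figure D4:**
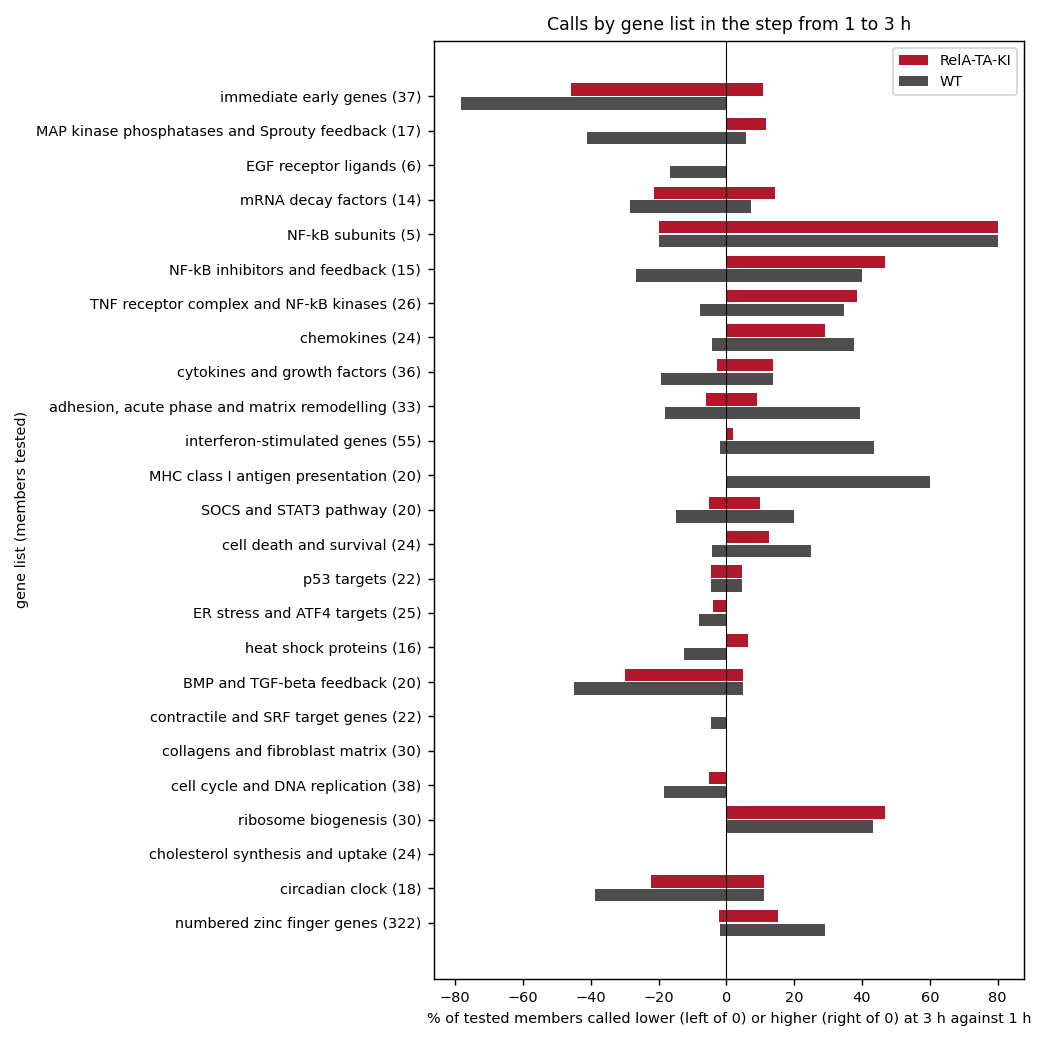
Percentage of tested members called lower (left of 0) or higher (right of 0) at 3 h against 1 h in each gene list, RelA-TA-KI (red) above WT (grey), with the number tested in brackets. The bars of the 2 genotypes are of similar length for ribosome biogenesis and NF-kB subunits, while the interferon and MHC class I bars are long in WT and short or missing in RelA-TA-KI.

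Genes outside the NF-kB pathway also changed, beside shares of 4.72% higher and 2.8% lower over all genes tested in RelA-TA-KI cells. Of 30 ribosome biogenesis genes, 14 rose and 0 fell in RelA-TA-KI cells (median 0.32), against 13 and 0 in WT (median 0.27). With each RelA-TA-KI library left out 4, 2, 3 and 5 rose, and with each WT library left out 5 to 14 rose in WT. The RNA methyltransferase gene Nop2 rose by 0.81 and the ribosome assembly gene Rrs1 by 0.63. Nop2 was not called without replicate 1 or 2 at 1 h or replicate 1 at 3 h (lowest 0.67), and Rrs1 not without replicate 2 at 1 h (0.53). The numbered zinc finger genes, a family of mostly KRAB-type repressors whose members can share reads and are therefore uncertain one by one, had 49 of 322 higher and 7 lower in RelA-TA-KI cells (85 and 13 with the replicate block, 26 and 5 in DESeq2, and 8, 18, 19 and 13 higher with each RelA-TA-KI library left out), against 94 and 6 in WT (48 to 75 higher with 1 library left out), and made up 11 of the 63 genes that rose at least 2-fold. Of 18 clock genes, 2 rose and 4 fell (2 and 8 with the replicate block; 0 to 2 and 2 or 3 with 1 library left out): Per1, a repressor of the clock, fell to 26.4 and 26.4 CPM at 3 h against 79.0 and 77.2 CPM at 1 h (step -1.56, WT step -1.48), and its activator Arntl rose by 0.80. Arntl was not called without replicate 1 at 1 h (0.68). The other rise was of Cry1 (0.46 to 0.62 with 1 library left out), and the other falls were of Dbp, Nfil3 and Nr1d1. Cry1 was not called without replicate 1 or 2 at 1 h or replicate 2 at 3 h. Dbp (-0.86 to -0.70) and Nr1d1 (-0.64 to -0.52) were not called without any 1 library. Of 20 BMP and TGF-beta feedback genes, 6 fell (3, 5, 4 and 3 with each library left out) and 1 rose; the BMP target genes Id3, Id2 and Id4 fell by 0.72, 0.74 and 1.07, and the ubiquitin ligase gene Smurf1 rose by 0.73. Id2 was not called without any 1 library (-0.91 to -0.60), and Id4 not without replicate 2 at 3 h (-1.01). Among 38 cell cycle and DNA replication genes 0 rose and 2 fell (1 and 15 with the replicate block; 0 or 1 fell with 1 library left out), and of 30 collagen and matrix genes and 24 cholesterol genes none was called. At an unadjusted p under 0.05 edgeR gave 3 of the 30 and 1 of the 24, DESeq2 called 0 of either, and the replicate block called 5 and 1. Of 22 contractile genes and 6 EGF receptor ligands none was called either (1 of each at an unadjusted p under 0.05 in edgeR, 0 and 1 in DESeq2, 6 and 2 with the replicate block). For the 20 BMP and TGF-beta feedback genes the replicate block called 4 higher and 6 lower.

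Of all 13843 genes tested, 4.72% rose and 2.8% fell in the RelA-TA-KI step, or 1476 and 1144 genes with the replicate block. Among signalling and death genes, 2 of 20 in the SOCS and STAT3 list rose and 1 fell (4 and 3 with the replicate block). Il4ra, the interleukin 4 receptor chain, rose by 0.62, Osmr, the oncostatin M receptor, by 0.38, and the kinase gene Pim1 fell by 0.72. Of 24 cell death and survival genes, 3 rose and 0 fell (6 and 2 with the replicate block): Casp4, an inflammatory caspase, by 0.97, Bid, a BCL2 family death agonist, by 0.88, and Fas. Osmr (0.31 to 0.44) and Casp4 (0.94 to 0.99) were not called without any 1 of the 4 libraries, and Pim1 not without replicate 1 at 3 h (-0.56) or replicate 2 at 1 h (-0.65). Of 22 p53 targets, 25 ER stress genes and 16 heat shock genes, the replicate block called 4 higher and 3 lower, 0 and 3, and 1 and 2. Without the block 2, 1 and 1 were called, shares close to the 7.53% of all genes tested that were called in either direction. They include the kinase gene Plk3 (-0.66), the eIF2 alpha phosphatase subunit gene Ppp1r15a (-0.56) and the co-chaperone gene Dnaja1 (0.27); Plk3 and Dnaja1 were lost without any 1 library and Ppp1r15a without replicate 2 at 3 h (-0.54). Of 14 mRNA decay factors, 2 rose and 3 fell: Zfp36 and Zfp36l2 (0.39), which recruit the deadenylation machinery, rose, and Arid5a (-1.15), which stabilises inflammatory transcripts, Zc3h12b (-0.95) and the antiproliferative gene Btg2 (-0.49) fell. Zfp36l2 was not called without replicate 1 or 2 at 1 h or replicate 2 at 3 h (lowest 0.30), and Zc3h12b not without replicate 1 at 1 h (-0.73) or replicate 2 at 3 h (-0.74).

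Of the 12 genes with the largest rise, several are known from myeloid cells. Acod1, which makes itaconate, had 2.30 and 6.69 CPM at 3 h, against 0.121 and 0.486 CPM at 1 h (step 3.84, SE 0.92, edgeR adjusted p = 0.023). Clec4e, the C-type lectin Mincle, had 7.74 and 20.3 CPM at 3 h, against 0.844 and 1.58 CPM at 1 h (step 3.53). Gpr84, a receptor for medium-chain fatty acids, rose by 2.96, Icosl, a T cell costimulatory ligand, by 2.60, the Toll-like receptor gene Tlr1 by 1.9 and the phosphoinositide 3-kinase regulator gene Pik3r5 by 1.78. At 3 h each of these 6 was higher in replicate 2 than in replicate 1, as were Cxcl2, Nfkbie, Ccl2 and Ccl20 of the same 12. The 24 macrophage and leukocyte markers summed to 1941 and 3270 CPM at 3 h, against 1814 and 2752 CPM at 1 h in RelA-TA-KI cells, with no marker at 0 in any of these libraries; they were 1499 and 2471 CPM at 3 h, against 1569 and 2134 CPM at 1 h in WT cells. None of the 24 was called in the step (0 at an unadjusted p under 0.05 in edgeR, 0 in DESeq2, 6 higher and 1 lower with the replicate block), and the part of macrophages in the rise of these genes was not tested. Calls were lost for Acod1, Clec4e, Gpr84, Icosl and Tlr1 without replicate 1 or 2 at 1 h or replicate 2 at 3 h (lowest steps 2.86, 2.66, 2.50, 1.92 and 1.15), and for Pik3r5 without replicate 1 at 1 h or replicate 2 at 3 h (lowest 1.32).

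Of the 12 genes with the largest fall, only Nr4a1 and Fosb belong to the immediate early genes, and the other 10 are known from skin epidermis or astroglia. Krt6a, an epidermal keratin, had 0 counts in both libraries at 3 h and 249 counts in the libraries at 1 h, so it was at least 86.7-fold lower against a floor of 3 counts over the group at 3 h; its reads can be shared with Krt6b. Asprv1, a protease of the skin barrier, had 0 counts at 3 h and 213 at 1 h and was at least 74.1-fold lower by the same floor. Krt5, a basal keratin, had 0.242 and 0.111 CPM at 3 h, against 32.4 and 14.3 CPM at 1 h, or 3 counts against 387 counts (ratio of 1 h over 3 h 135, interval 45.7 to 656, covering counting error only). Gfap, the astrocyte filament protein, had 0.967 and 2.90 CPM at 3 h, against 53.5 and 42.4 CPM at 1 h (step -4.60, SE 1.14, edgeR adjusted p = 0.025). The water channel gene Aqp4 fell by 3.56 and the neural matrix gene Ncan by 3.13.

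Lists of 47 epidermal and 21 astroglial genes were made after these genes had been seen and serve as description only. Of 39 epidermal genes tested, 13 were called lower and 0 higher, with a median step of -3.15, the same with the 8 members without counts in 1 group set to the floor; of 16 astroglial genes, 7 were called lower and 0 higher (median -1.72). With the replicate block these were 26 and 11 lower. With each RelA-TA-KI library left out, 0, 3, 0 and 1 epidermal and 1, 2, 1 and 1 astroglial genes were called lower. In WT cells no member of either list was called; 0 epidermal and 2 astroglial genes had an unadjusted p under 0.05 in edgeR, DESeq2 called 0, and the replicate block called 1 epidermal gene lower and 2 astroglial genes higher. The difference of steps was called by edgeR for 0 of the 39 and 0 of the 16 genes (23 and 12 at an unadjusted p under 0.05, 3 and 4 called in DESeq2), and negative for 5 and 6 with the replicate block. Without WT replicate 1 at 1 h it was called for 8 epidermal genes, and without WT replicate 1 at 3 h for 1 epidermal and 5 astroglial genes, all negative. The epidermal genes summed to 61.9 and 60.6 CPM at 3 h, against 385 and 251 CPM at 1 h in RelA-TA-KI cells, and 10 and 11 of them were at 0 at 3 h. Before TNF, at 0.5 h and at 8 h the RelA-TA-KI sums were 154 and 148, 61.5 and 90.8 and 294 and 317 CPM, so the values moved up and down over the course. In WT cells same-time libraries differed among themselves, with 123 and 302 CPM at 3 h and 342 and 60.7 CPM at 1 h. The astroglial genes summed to 89.6 and 103 CPM at 3 h, against 248 and 203 CPM at 1 h in RelA-TA-KI cells. Of the 77 genes that fell at least 2-fold, 20 are in these 2 lists, and 56 remain without the genes of all marker lists and of these 2. Of 10 markers tested in a separate epithelial list, 2 (Krt5 and Krt14) were called lower and 0 higher in RelA-TA-KI cells, and 0 were called in WT. The 10 summed to 58.25 and 64.96 CPM at 3 h, against 139.0 and 115.6 CPM at 1 h in RelA-TA-KI cells. The part of admixed cells in these falls was not tested. Of the 15 muscle and 9 neural markers 0 were called (2 of each at an unadjusted p under 0.05 in edgeR, 0 of either in DESeq2), and 1 of 10 endothelial markers, Esam, had a step of -2.38 that was not called without any 1 library (-2.45 to -2.32) or in DESeq2. With the replicate block 1 muscle marker was called lower, and 1 neural marker was called higher and 1 lower. Muscle markers summed to 72.6 and 47.0 CPM at 3 h, against 101.9 and 83.6 CPM at 1 h, with a median step of -1.06. Neural markers summed to 69.6 and 73.9 CPM at 3 h, against 68.8 and 71.2 CPM at 1 h. Endothelial markers summed to 140.8 and 165.8 CPM at 3 h, against 141.7 and 131.3 CPM at 1 h. Calls of Krt6a, Gfap and Aqp4 were lost without any 1 library, those of Asprv1 and Krt5 without replicate 1 at 1 h or either library at 3 h, and that of Ncan without replicate 2 at 3 h (-2.95).

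**Figure D5:**
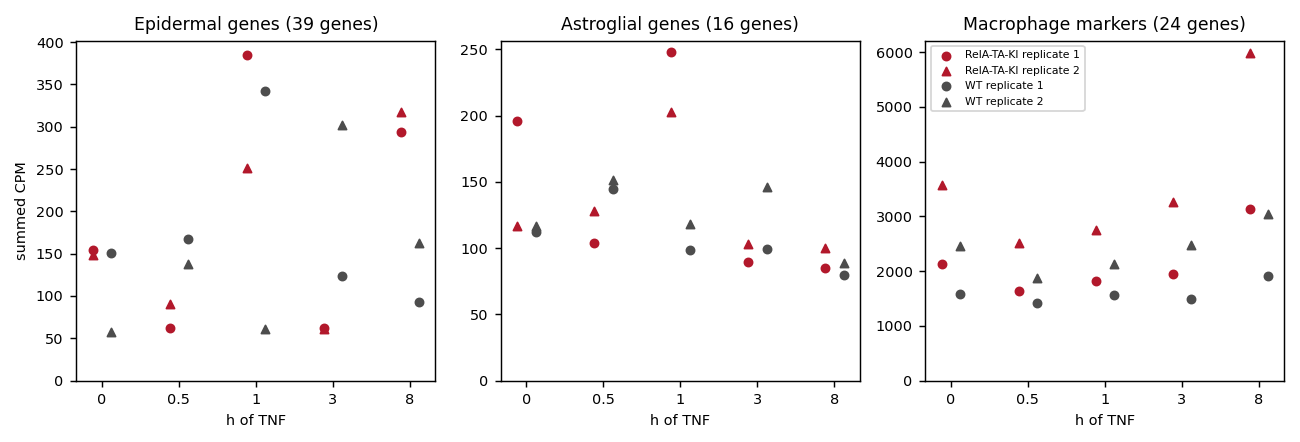
Summed CPM of the epidermal, astroglial and macrophage genes in each of the 20 TNF libraries by time, RelA-TA-KI (red) left of WT (grey), with circles for replicate 1 and triangles for replicate 2. Epidermal and astroglial sums are high in both RelA-TA-KI libraries at 1 h and low at 3 h, WT epidermal sums differ between replicates, and macrophage sums are higher in replicate 2 than in replicate 1 of the same genotype at every time.

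The second count table, with LPS and Poly(I:C) at 1 library per genotype and condition, allowed the same step to be described for other stimuli without a test. LPS (100 ng/ml) is a bacterial ligand of TLR4, and Poly(I:C) (20 ug/ml) mimics double-stranded viral RNA. Of the 63 genes that rose at least 2-fold with TNF, 52 were measured there. In RelA-TA-KI cells, 25 were at least 2-fold higher at 3 h than at 1 h of LPS (8.42% of all 11665 genes were). At least 2-fold lower with LPS were 10 (5.92% of all genes), and the median log2 ratio was 0.80. With Poly(I:C), 21 were at least 2-fold higher (6.17% of all genes) and 5 at least 2-fold lower (2.37%), with a median of 0.59. Of the 77 genes that fell with TNF, 40 were measured. With LPS, 11 were at least 2-fold lower (5.92% of all genes) and 4 at least 2-fold higher (8.42%), with a median of -0.22. With Poly(I:C), 11 were at least 2-fold lower (2.37%) and 3 at least 2-fold higher (6.17%), with a median of -0.25. Log2 ratios of 3 h over 1 h were 4.28 with LPS and 5.02 with Poly(I:C) for Ccl2, and -2.87 and -4.02 for Nr4a1. Gbp2, which was not called in the TNF step of RelA-TA-KI cells, had log2 ratios of 6.67 and 6.10, and Trim21 had 4.60 and 4.48. Pdgfb went the other way from TNF, with -2.09 and -2.24.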

How the data were processed

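Per the submitters' processing notes, reads were trimmed with cutadapt 1.9.1, aligned with STAR and counted with featureCounts 1.4.6, with mm10 as the genome build; DESeq2 is named there without a role. The deposited values are raw counts per gene, with 20 TNF libraries in 1 table and 18 LPS and Poly(I:C) libraries in another; 45143 of 45706 gene identifiers had a symbol, and 0 columns were left out. Which annotation release and strand setting were used, and how multi-mapping reads were treated, are not given in the sources used here, so genes that overlap, lie antisense or belong to near-identical families may share counts.

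Here the TNF table was fitted with the edgeR 4.0.16 quasi-likelihood test in R 4.3.3: TMM scaling, filterByExpr on the 10 groups (13843 genes kept), 1 mean per group and 10 residual degrees of freedom. Contrasts were 3 h against 1 h in each genotype and their difference; p-values were adjusted by Benjamini-Hochberg over all genes tested, with a threshold of 0.05. The SE was taken as the size of a log2 step over √F. CPM are TMM-scaled. Same-numbered samples deviated together from their group means in all 10 pairs of times in each genotype (r of 0.193 to 0.422 in RelA-TA-KI, 0.288 to 0.561 in WT). They also did so in the 25 pairs across genotypes (r of 0.119 to 0.409). A rule set before the fits were compared took numbers to pair samples if every r within a genotype passed a threshold, and it was met. The main calls still come from the fit without a block, which leaves this pairing out. The block gave 2620 calls in place of 1042 for the RelA-TA-KI step and 364 in place of 70 for the difference. A gene given as not called may therefore be called with the block. A fit with the replicate number as a block within genotype is given for many, though not all, of the calls and counts that it changed. Alternatives were DESeq2 1.42.0, its size factors, no filter on low counts, both forms of the block, a fit of only the groups compared, and each library left out; where this leaves 1 library in a group, that library is assumed to vary like the others. Without the filter, genes with very few counts also entered the estimate of spread. The differences of Atf3, Ccl5, Ccl7 and Fos kept nearly the same size there while their p-values fell far. These p-values therefore add no support, and the cause of their fall was not tested. LPS and Poly(I:C) ratios used a prior count of 2. The main form of the fit was also run on simulated counts. Those libraries were independent and had no replicate effect, so that run says nothing about the pairing of samples.

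Members and lists were chosen with earlier results of these data known. Named genes were the 12 called genes with the largest rise and fall (mean of at least 20 counts, no overlap between times), the 8 with the largest difference of steps each way, up to 4 called members each way in each list, and NF-kB subunits with a set of known targets. A few more (Egr2, Nr4a2, Cx3cl1, Ccl5, Psmb10 and the genes with opposite directions) were named after their values were seen. A list is described by its counts and median. For the RelA-TA-KI step the counts are to be read beside the 4.72% of all genes called higher and 2.8% called lower. The intervals of counts and floors of 3 counts cover counting error only, since PCR copies were not marked.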

Additional observations from a re-analysis of the deposited data

Results flagged for a closer look

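For the named genes below, the step from 1 to 3 h differed between RelA-TA-KI and WT cells by the test of the difference itself (edgeR quasi-likelihood test, adjusted p below 0.05); values are log2 differences, RelA-TA-KI minus WT. Among chemokines, cytokines and adhesion genes the differences were Ccl2 1.56, Ccl20 2.46, Cxcl1 2.50, Cxcl2 3.26, Lif 2.05, Sele 2.82. Among immediate early, mRNA decay and feedback genes they were Btg2 0.72, Csrnp1 2.02, Egr1 1.69, Egr3 2.37, Ier2 1.45, Ier3 1.36, Nr4a1 2.00, Zfp36 1.75, Zfp36l2 0.65, Spry4 1.20. Among NF-kB pathway genes and other genes they were Irf1 2.00, Map3k14 1.81, Nfkbia 1.52, Rel 0.85, Tnfaip3 2.14, Ppp1r18 0.96, Rnd1 1.58. Negative differences were Nr3c2 -3.76, Gbp2 -3.13, A2m -2.94, Kcnn3 -2.50, Zbtb7c -2.43, Dtx3l -2.15, Trim21 -2.11, Mmp3 -2.01, Fas -0.95, Nfkb1 -0.73. A2m, which encodes a protease inhibitor of the acute phase, had 4.11 and 3.68 CPM at 3 h, against 12.9 and 13.1 CPM at 1 h in RelA-TA-KI cells, and its difference and that of Zfp36l2 were not called in 7 of 8 fits with 1 library left out.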

How the results depend on the processing

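Calls of the RelA-TA-KI step were 1034 with DESeq2 size factors, 698 with DESeq2 and 1544 without a filter on low counts. They were 2620 with the replicate block within genotype, 2338 with a block shared by genotypes, 397 in a fit of only the groups compared, and 287 to 459 with 1 library left out. For the WT step the last 4 settings gave 3168, 2913, 440 and 896 to 1358. For the difference of steps they gave 364, 259, 32 and 39 to 92, and 380 without a filter. Calls among genes induced in WT at 1 h were 39 to 50 with 1 library left out, and among those induced at 3 h but not 1 h they were 103 with the replicate block and 23 to 37 with 1 library left out. Calls over all lists, 106, were 228 with the replicate block and 54 to 67 with 1 library left out. The falls of at least 2-fold were 56 of 77 without marker and added genes, an alternative chosen after seeing the data. The replicate block ended no RelA-TA-KI call of a named gene. Over 113 named genes and the alternatives, RelA-TA-KI steps kept direction and side of the threshold in 857 cases, lost the call in 267, gained it in 2 and changed sign in 2, Sele (0.53; -0.036 to 0.904 with 1 RelA-TA-KI library left out) and Dtx3l (0.04; -0.241 to 0.271), both negative without replicate 2 at 3 h and neither called; for 37 differences the numbers were 464, 50, 4 and 0. The cause of these shifts was not tested. With 2 libraries a group, small steps of low-count genes cannot be told from the spread between libraries.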
